A study of Mus musculus with 3 samples.

Results

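The tripartite motif (TRIM) family was followed in RAW 264.7 macrophages, a mouse macrophage-like cell line, that received lactobacilli and then the TLR4 agonist LPS. Members were taken by symbol, as every gene probe on the array whose gene name was Trim followed by a number and at most some letters. This gave 66 TRIM genes and 124 probes, out of 26840 genes with a symbol and 56605 gene probes of 60 bases. RNA was labelled in 1 colour and hybridised to SurePrint G3 Mouse GE arrays, where each probe is a short DNA strand that lights up with the amount of its transcript. There was 1 array for each of 3 conditions. The cells of the LPS array received LPS alone at 50 ng/mL. The cells of the CRL1505 + LPS array received *Lacticaseibacillus rhamnosus* CRL1505, and those of the CRL1506 + LPS array *Lactiplantibacillus plantarum* CRL1506, both at 50000000 cells/mL for 24 h before the same LPS. LPS was given for 12 h according to the design text and for 3 h according to the sample descriptions. All of the RNA came from the same transformed line, so the values describe that line and not primary macrophages. Arrays of cells without LPS were not analysed here, so each value compares a strain + LPS with LPS alone, or the strains with each other.

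TRIM proteins share a RING domain, 1 or more B-boxes and a coiled coil, and most of them are E3 ubiquitin ligases, which place ubiquitin on chosen proteins. Their C-terminal domains differ and set what each member binds, with a PRY-SPRY domain in many of the antiviral members, NHL repeats in some neuronal ones and a PHD finger with a bromodomain in the transcription cofactors. In macrophages, several members are induced by type I interferon (IFN) and act on viral capsids, on the RNA sensors RIG-I and MDA5, and on the TLR and NF-kappaB pathways.

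With 1 array per condition there was no replicate, so no test was possible and no p-value is given. Genes were counted as higher or lower from 2-fold upward, which is the fold threshold in the study's methods. The study also required a t-test cutoff and compared with control samples without LPS, so the counts here do not apply its full criterion. CRL1506 + LPS shared a slide and a scan run with LPS alone, while CRL1505 + LPS was on another slide and in another scan run, so strain and slide cannot be told apart in any comparison that involves CRL1505. The share of gene spots well above background was 48.5% on the CRL1505 + LPS array, against 54.5% for LPS alone and 55.3% with CRL1506. Over repeated spots of a probe, the SD of the log2 ratio had a median between 0.043 and 0.048 in the 3 comparisons, which is the error within a hybridisation only. Between different probes of a gene, the median SD was 0.23 for CRL1505 against LPS, 0.21 for CRL1506 against LPS and 0.32 between the strains. For the TRIM genes alone it was 0.36, 0.31 and 0.35. All 9 macrophage markers on the array were well above background on each array, including *Adgre1*, *Cd68* and *Lyz2*. Of 13 markers of T, B, NK, fibroblast, epithelial and endothelial cells, between 4 and 6 were well above background on each array. Their summed signal ranged from 3.17 to 3.27 times the 75th percentile of the array. *Cd3e*, *Cd4*, *Ms4a1* and *Pecam1* were well above background on all arrays. Most of the sum came from *Cd4* (1.64 in LPS, 1.64 in CRL1505 + LPS and 1.37 in CRL1506 + LPS) and *Cd3e* (1.17, 1.05 and 1.20). No array had *Cd8a*, *Cd79a*, *Nkg7*, *Krt8*, *Krt18* or *Cdh1* well above background.

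Of the 66 TRIM genes, 41 were well above background on all arrays, 5 on some arrays only (*Trim7*, *Trim42*, *Trim43b*, *Trim55* and *Trim69*) and 20 on none. The 41 include *Trim30b*, through a probe that RefSeq lists only under the predicted gene *Gm38525*. Among the 20 were genes of other tissues. These were the muscle genes *Trim63* and *Trim72*, the brain genes *Trim9* and *Trim67*, and *Trim58*, a gene of maturing red cells. The signaling regulators *Trim31*, *Trim38* and *Trim40* and the IFN-inducible *Trim5*, *Trim6* and *Trim12a* were also not well above background, and no ratio is given for them.

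Because the largest group past 2-fold consisted of IFN-inducible members, the stretch upstream of their transcription start sites is shown first. RefSeq windows (GRCm38.p6) of 300 bases, from 250 before to 50 after the start, were given for 51 of the 66 genes. The core of the interferon-stimulated response element was searched on both strands as GAAA, any 2 bases and GAAA, which reads TTTC, any 2 bases and TTTC on the other strand. The following stretches of 5 members, 5′ to 3′ on the strand of the gene and ending before its start site, carry it, with the matched bases in capitals.

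Trim30a (chr7:104465194-104465269, minus strand): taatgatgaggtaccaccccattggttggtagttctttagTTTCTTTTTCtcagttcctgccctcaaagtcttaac

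Trim30d (chr7:104507850-104507930, minus strand): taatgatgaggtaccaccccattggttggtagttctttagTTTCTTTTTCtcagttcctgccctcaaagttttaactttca

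Trim12c (chr7:104353350-104353418, minus strand): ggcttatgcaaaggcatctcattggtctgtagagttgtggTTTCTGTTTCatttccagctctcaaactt

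Trim5 (chr7:104288107-104288195, minus strand): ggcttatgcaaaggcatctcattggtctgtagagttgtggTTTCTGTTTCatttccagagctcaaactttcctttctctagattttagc

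Trim26 (chr17:36836946-36837041, plus strand): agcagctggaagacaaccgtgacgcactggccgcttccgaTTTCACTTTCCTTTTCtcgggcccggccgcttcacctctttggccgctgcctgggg

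*Trim30a* and *Trim30d* shared the same 10 matched bases with the same 40 bases before them, and so did *Trim12c* and *Trim5*. In *Trim26* a pair of matches overlapped by 4 bases. After the start site, *Trim21* held GAAACTGAAA and GAAAGTGAAA and *Trim34a* held TTTCAGTTTC. Matches were found in 8 of the 13 IFN-inducible members with a window (61.5%), namely these 7 and *Trim12a*. They were found in 1 of 38 other TRIM genes (*Trim2*) and in 3.99% of all 27025 genes with a window, or 3.44% of 32851 RefSeq windows. Of the members with a match, *Trim12c*, *Trim21*, *Trim26*, *Trim30a*, *Trim30d* and *Trim34a* were at least 2-fold higher with CRL1505. No ratio could be formed for *Trim5* and *Trim12a*, and *Trim2* was 3.30-fold lower with CRL1505. *Trim14*, *Trim25*, *Trim30b* and *Trim56* were also at least 2-fold higher, and no match was found for them. Not every member had a window. In the list of interferon-stimulated genes described below, 10 of 18 genes with a window held a match. The NF-kappaB motif, searched on both strands as GGGA, any base and TTTCC, was in no TRIM window and in 0.411% of all windows. A match of letters is a description and does not show binding.

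The first comparison asked which TRIM genes differed when LPS followed CRL1505. Of 44 TRIM genes that could be compared, 10 were at least 2-fold higher in CRL1505 + LPS (22.7%) and 9 were at least 2-fold lower (20.5%). Over all 15603 genes compared, the background was 9.93% higher and 8.41% lower, or 18.3% in either direction, against 43.2% of the TRIM genes. The 10 that were higher were all IFN-inducible members (*Trim12c*, *Trim14*, *Trim21*, *Trim25*, *Trim26*, *Trim30a*, *Trim30b*, *Trim30d*, *Trim34a* and *Trim56*). *Trim30b* counts among them through a probe that RefSeq lists only under the predicted gene *Gm38525*. The 9 that were lower (*Trim2*, *Trim29*, *Trim37*, *Trim42*, *Trim47*, *Trim52*, *Trim59*, *Trim62* and *Trim65*) came from the other groups. The balance of 10 higher to 9 lower depended on the scaling of the arrays, and was 10 to 4 after a shift by the median, 9 to 3 with normexp background correction, 9 to 4 in the deposited log2 table, 6 to 10 after scaling to all spike-in probes and 6 to 11 after scaling to the spike-in probes well above background. Over all genes the counts moved as well, from 1549 higher and 1312 lower. In the same order they were 2417 and 760, 1158 and 667, 981 and 775, 1137 and 1886, and 799 and 3169. These were out of 14925 to 16066 genes compared, and the TRIM counts out of 43 or 44. The median log2 ratio of the TRIM genes was 0.13, and that of all genes 0.01. The median size of the log2 ratio, taken without its sign, was 0.66 for the TRIM genes and 0.41 for all genes.

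**Figure D1:**
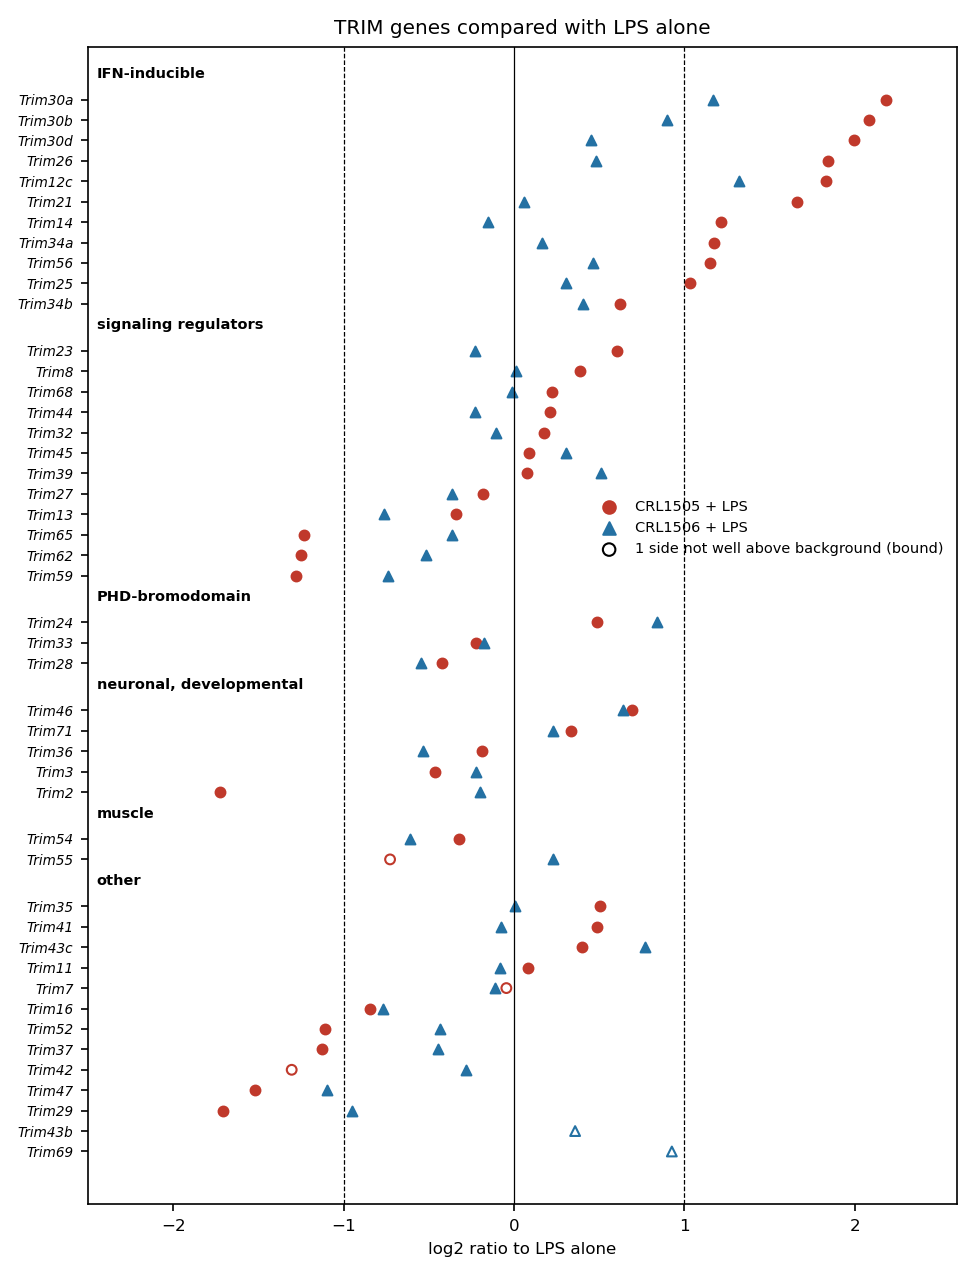
Log2 ratio to LPS alone of every TRIM gene that could be compared, by role, with circles for CRL1505 + LPS and triangles for CRL1506 + LPS (1 array each), open symbols for bounds where 1 side was not well above background and dashed lines at 2-fold. With CRL1505, 10 of the 11 IFN-inducible genes lie right of the upper line and 9 genes of the other groups lie left of the lower one, while with CRL1506 2 genes lie right and 1 lies left.

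The IFN-inducible list held 15 genes, of which 14 were on the array and 11 could be compared. It was chosen with earlier results of these data known, so its counts are a description and no test. With CRL1505, 10 of the 11 were at least 2-fold higher and *Trim34b* was 1.54-fold higher, and the median log2 ratio was 1.66. Signals are given below as multiples of the 75th percentile of the array, and are compared between arrays for 1 probe at a time, never between genes.

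*Trim30a*, a negative regulator of TLR and NF-kappaB signaling that targets TAB2 and TAB3, had a signal of 6.52 in LPS, 29.6 in CRL1505 + LPS and 14.6 in CRL1506 + LPS. CRL1505 + LPS was highest and LPS alone lowest, with ratios to LPS of 4.54-fold and 2.24-fold. Its neighbour *Trim30d* measured 2.33, 9.26 and 3.19 in the same order, or 3.98-fold and 1.37-fold. *Trim30b* measured 1.08, 4.58 and 2.02, or 4.23-fold and 1.86-fold. The probe used for *Trim30b* is listed by RefSeq under the predicted gene *Gm38525*, and no array had the probe for the RefSeq transcript of *Trim30b* well above background, so the *Trim30b* values are uncertain. *Trim12c*, a relative of the capsid-binding TRIM5, had 1.03, 3.66 and 2.57, with ratios of 3.56-fold and 2.50-fold. Its probe also lists a transcript that RefSeq gives to *Trim5*.

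*Trim21*, the cytosolic Fc receptor that sends antibody-coated virus to the proteasome, had a signal of 2.01 in LPS, 6.36 in CRL1505 + LPS and 2.10 in CRL1506 + LPS. It was thus 3.16-fold higher with CRL1505, while the CRL1506 array lay within 1.04-fold of LPS alone. *Trim26*, a ligase of the major histocompatibility region that acts on IRF3 and on IFN-beta production, measured 8.79, 31.6 and 12.3, or 3.59-fold and 1.40-fold. *Trim14*, an adaptor of MAVS signaling that lacks the RING domain, measured 2.45, 5.68 and 2.20. It was 2.32-fold higher with CRL1505, and with CRL1506 it was 1.11-fold lower at this probe, while other probes of it were higher with CRL1506. *Trim56*, a ligase linked to STING and cGAS signaling, measured 4.11, 9.12 and 5.66, or 2.22-fold and 1.38-fold.

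*Trim25*, which ubiquitinates RIG-I, had a signal of 105.7 in LPS, 216.5 in CRL1505 + LPS and 130.7 in CRL1506 + LPS. Its ratio of 2.05-fold with CRL1505 lay just past the threshold and remained past it in 1 of 7 other normalizations. *Trim34a* measured 0.933, 2.11 and 1.05, or 2.26-fold and 1.12-fold. Its relative *Trim34b* measured 0.540, 0.832 and 0.714, or 1.54-fold and 1.32-fold. One of the 4 probes of *Trim34a* also lists a *Trim34b* transcript.

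**Figure D2:**
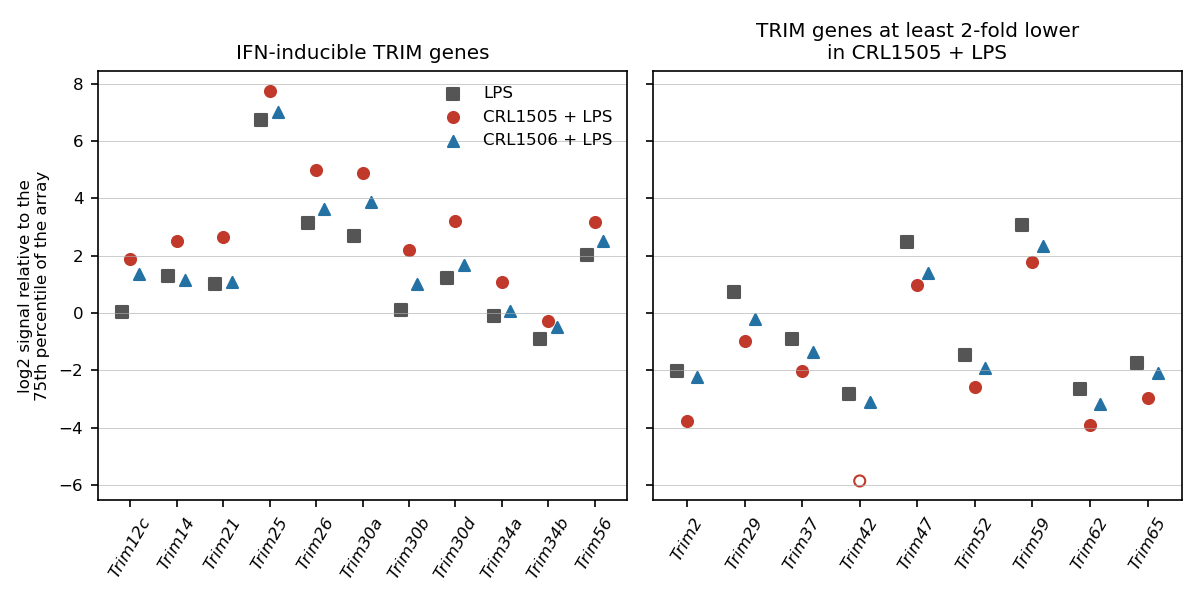
Log2 signal of each array relative to its 75th percentile for the 11 IFN-inducible TRIM genes that could be compared and for the 9 TRIM genes at least 2-fold lower in CRL1505 + LPS, with squares for LPS, circles for CRL1505 + LPS and triangles for CRL1506 + LPS, 1 array each, and an open symbol where the signal was not well above background. In each gene on the left the circle is highest and in each gene on the right it is lowest, and heights of different genes are not comparable since each probe has its own brightness.

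In all, 9 IFN-inducible members on the array have their probes in 1 stretch of chromosome 7 (mm9, from 111382909 in *Trim6* to 111636478 in *Trim30d*), in the order *Trim6*, *Trim34a*, *Trim5*, *Trim12a*, *Trim34b*, *Trim12c*, *Trim30b*, *Trim30a* and *Trim30d*. The log2 ratios with CRL1505 of the 6 that could be compared were, in that order, 1.18 for *Trim34a*, 0.62 for *Trim34b*, 1.83 for *Trim12c*, 2.08 for *Trim30b*, 2.18 for *Trim30a* and 1.99 for *Trim30d*. These genes are close paralogs, but no pair of probes of different TRIM genes shared more than 31 of 60 bases in an ungapped alignment. Whether a probe also binds the transcript of a paralog was not tested. IFN-inducible members on other chromosomes, such as *Trim26* on chromosome 17 and *Trim56* on chromosome 5, were at least 2-fold higher as well.

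Probes of the same gene did not always give the same size. Of the TRIM genes with at least 2 measured probes, 12 of 21 had all probes on the same side of 0 for CRL1505 against LPS and 15 of 24 for CRL1506 against LPS. Between the strains 9 of 21 did, and *Trim30a* and *Trim34a* were among the 12 with probes on both sides. All measured probes of the IFN-inducible members were above 0 with CRL1505. For *Trim30a*, the probe of the RefSeq transcript had log2 ratios of 2.18 with CRL1505 and 1.17 with CRL1506, and a second probe 1.88 and 1.12. The third probe of *Trim30a*, designed on a cDNA clone, had 0.58 and 1.99, so at this probe CRL1506 + LPS was highest. The second probe of *Trim12c* had 2.09 and 0.47, against 1.83 and 1.32 at the probe used. The second probe of *Trim30d* had 2.76 and 1.43, against 1.99 and 0.45. That of *Trim14* had 0.73 and 0.32, against 1.22 and -0.15. The third probe of *Trim14* was well above background in CRL1506 + LPS alone, at least 5.39-fold higher than in LPS and at least 4.21-fold higher than in CRL1505 + LPS, at a spot in an uneven area. The order of the strains for *Trim14* thus differed between its probes. The 3 probes of *Trim25* had 1.03, 1.66 and 1.05 with CRL1505, and the 4 of *Trim34a* lay between 0.29 and 1.18.

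**Figure D3:**
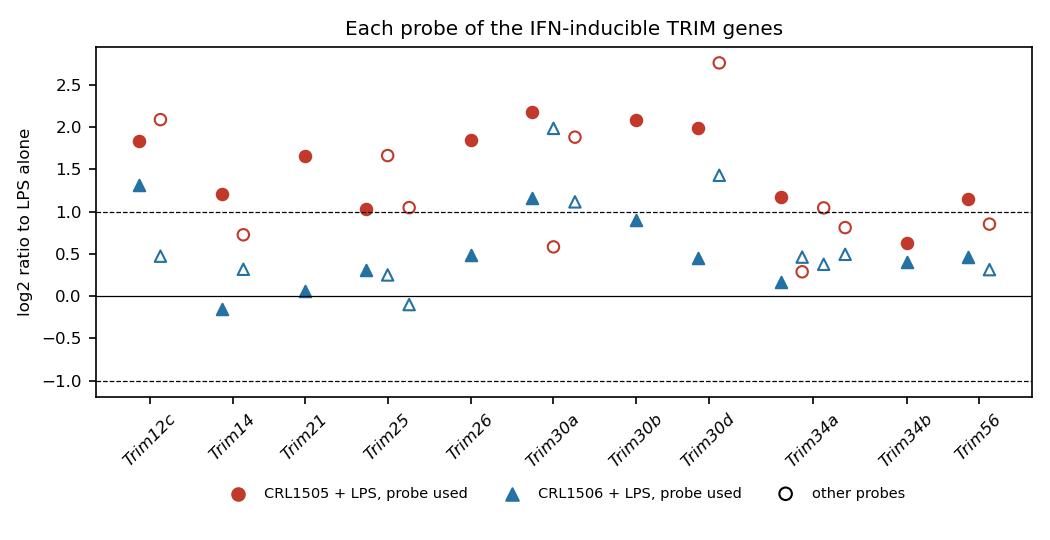
Log2 ratio to LPS alone of each probe of the IFN-inducible TRIM genes that was well above background on all arrays, with circles for CRL1505 + LPS, triangles for CRL1506 + LPS, filled symbols for the probe used, open symbols for the others and dashed lines at 2-fold. Every circle lies above 0, and at the middle probe of *Trim30a* the triangle (1.99) lies above the circle (0.58).

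Among the genes lower in CRL1505 + LPS, 3 belonged to the 15 TRIM regulators of TLR, NF-kappaB and RIG-I signaling, of which 12 could be compared. This was 25% of the 12, against 8.41% of all genes. *Trim59*, a membrane-anchored ligase that restrains NF-kappaB and IRF signaling, had a signal of 8.39 in LPS, 3.45 in CRL1505 + LPS and 5.03 in CRL1506 + LPS. It was 2.43-fold lower with CRL1505 and 1.67-fold lower with CRL1506. *Trim65*, which ubiquitinates MDA5, measured 0.299, 0.127 and 0.232, or 2.35-fold and 1.29-fold lower, at a probe without a RefSeq match. Its probes for the RefSeq transcript were at least 2.29-fold and at least 1.76-fold lower with CRL1505, and 1.68-fold and at least 2.13-fold lower with CRL1506. *Trim62*, a ligase of TRIF-dependent TLR signaling, measured 0.159, 0.067 and 0.111, or 2.37-fold and 1.43-fold lower. *Trim62* and *Trim65* were near background on the CRL1505 + LPS array, where the lowest signal well above background was 0.057. The second probe of *Trim62* gave a log2 ratio of 0.41 with CRL1506, against -0.52 at the probe used.

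None of the 12 signaling regulators was at least 2-fold higher with either strain, against 9.93% of all genes with CRL1505 and 5.67% with CRL1506. The log2 ratios with CRL1505 and CRL1506 were 0.39 and 0.01 for *Trim8*, which acts on TAK1, and -0.34 and -0.77 for *Trim13*, a ligase of the endoplasmic reticulum. *Trim23*, which makes chains on the NF-kappaB modulator NEMO, had 0.61 and -0.23, and *Trim27*, which binds NOD2, had -0.18 and -0.36. *Trim32*, a ligase of STING, had 0.17 and -0.11, and *Trim44*, a stabiliser of MAVS, had 0.21 and -0.23. The remaining 3 were *Trim39* with 0.08 and 0.51, *Trim45* with 0.09 and 0.31, and *Trim68* with 0.22 and -0.01. Probes of *Trim8*, *Trim27*, *Trim32*, *Trim39*, *Trim44* and *Trim45* lay on both sides of 0 with at least 1 of the strains, those of *Trim8* close to it. The 3 probes of *Trim39* ranged from -0.89 to 0.08 with CRL1505 and from 0.31 to 1.12 with CRL1506. With CRL1505, 7 of the 12 genes lay above 0, and after scaling to all spike-in probes 2 did, so no direction is given for the genes that did not pass 2-fold.

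The other genes lower with CRL1505 had varied roles. *Trim29*, a member without a RING domain known as an inhibitor of cytosolic nucleic acid sensing in alveolar macrophages, had a signal of 1.67 in LPS, 0.510 in CRL1505 + LPS and 0.861 in CRL1506 + LPS. It was 3.26-fold lower with CRL1505 and 1.94-fold lower with CRL1506. *Trim47* measured 5.64, 1.97 and 2.64, or 2.87-fold and 2.14-fold lower, and was the only TRIM gene that passed 2-fold downward with both strains. *Trim2*, a ligase of neurofilament light chain best known from neurons, measured 0.245, 0.074 and 0.213. The CRL1505 array was lowest at 3.30-fold below LPS, while the ratio with CRL1506 was 1.15-fold. On the CRL1505 + LPS array *Trim2* was near background, since the lowest signal well above background there was 0.057. No array had the other probes of *Trim2* well above background. Of the other neuronal and developmental members, *Trim3* had log2 ratios of -0.46 with CRL1505 and -0.22 with CRL1506, *Trim36* had -0.19 and -0.53, *Trim46* had 0.69 and 0.64, and *Trim71*, a ligase of early development that represses mRNAs, had 0.33 and 0.23.

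*Trim37*, a ligase of centrosome assembly, measured 0.533, 0.244 and 0.391, or 2.18-fold lower with CRL1505 and 1.36-fold lower with CRL1506. *Trim52* measured 0.359, 0.167 and 0.265, or 2.15-fold and 1.35-fold lower. The LPS spot of *Trim52* lay in an uneven area of the array and no value remained when such spots were left out. The CRL1506 + LPS spots of *Trim37* and *Trim59* lay in such areas too. *Trim42* was not well above background in CRL1505 + LPS and was at least 2.47-fold lower there, from a signal of 0.142 in LPS, while it measured 0.117 in CRL1506 + LPS.

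**Figure D4:**
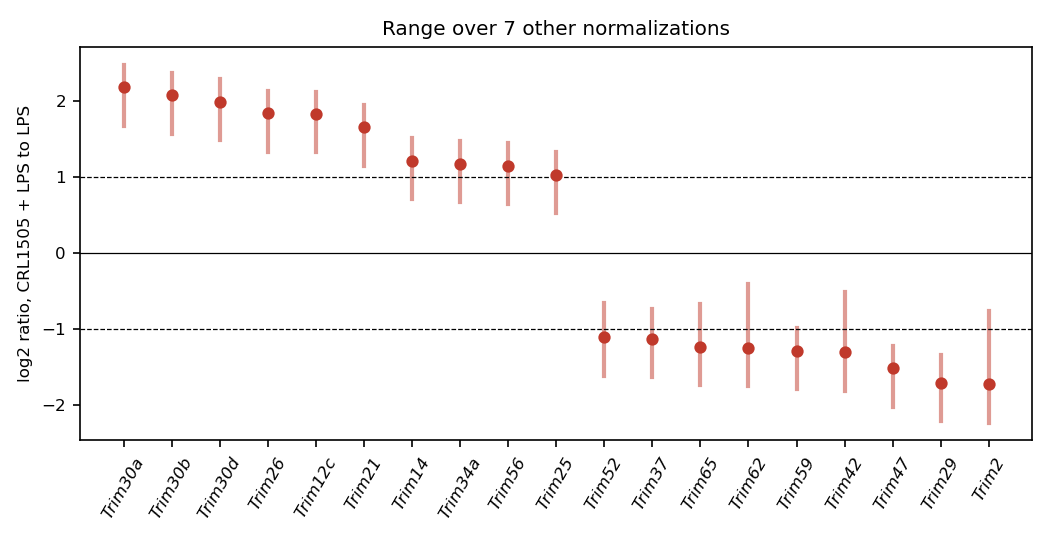
Log2 ratio of CRL1505 + LPS to LPS alone for the 19 TRIM genes past 2-fold, with points for the values reported, lines for the range over 7 other normalizations and dashed lines at 2-fold. No line crosses 0, and the lines of *Trim30a*, *Trim30b*, *Trim30d*, *Trim26*, *Trim12c*, *Trim21*, *Trim47* and *Trim29* stay past 2-fold throughout.

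The 19 genes past 2-fold kept their direction under the 7 other normalizations. Of the IFN-inducible members, *Trim12c*, *Trim21*, *Trim26*, *Trim30a*, *Trim30b* and *Trim30d* were past 2-fold in all 7, *Trim14*, *Trim34a* and *Trim56* in 5, and *Trim25* in 1. For *Trim30b* this holds for a probe that RefSeq lists only under *Gm38525*. Of the lower genes, *Trim29* and *Trim47* were past 2-fold in all 7, *Trim42* and *Trim59* in 6, *Trim2* in 5, *Trim37* and *Trim65* in 4, and *Trim52* and *Trim62* in 3.

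The PHD-bromodomain members are cofactors that bind chromatin rather than cytosolic ligases. *Trim28*, the KAP1 corepressor of zinc finger proteins, had a signal of 62.5 in LPS, 46.6 in CRL1505 + LPS and 42.8 in CRL1506 + LPS. Neither ratio passed 2-fold, with log2 ratios of -0.42 and -0.55. *Trim33*, which acts in TGF-beta signaling and at *Ifnb1* in macrophages, had -0.22 and -0.17. The brightest probe of *Trim24* had 0.49 and 0.84, but its only RefSeq match was *Lmbr1*, and a probe of the RefSeq transcript of *Trim24* had -0.41 and -0.29. Another probe of that transcript was well above background in LPS alone, at an uneven spot, and its bounds were just past 2-fold lower with CRL1505 and 2.43-fold lower with CRL1506. The direction of *Trim24* thus depended on the probe. *Trim66* was not well above background. Among the muscle members, *Trim54*, which binds the sarcomere, had log2 ratios of -0.32 with CRL1505 and -0.61 with CRL1506 near background.

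The remaining measured members did not pass 2-fold with either strain at the probe used, and their probes often differed. *Trim35* had a signal of 25.9 in LPS, 36.8 in CRL1505 + LPS and 26.1 in CRL1506 + LPS, and *Trim41* had 17.2, 24.1 and 16.3. In both, the CRL1505 + LPS array was highest at the brightest probe, whose LPS spot lay in an uneven area for *Trim41*. The other probes went the other way with CRL1505, with log2 ratios of -0.87 and -0.43 for *Trim41* and -0.12 for *Trim35*. The log2 ratios of *Trim11* were 0.08 with CRL1505 and -0.08 with CRL1506, those of *Trim16*, a member without a RING domain that acts in the autophagy of damaged lysosomes, were -0.85 and -0.77, and those of *Trim43c* were 0.40 and 0.77. The second probe of *Trim16*, for the same transcript, had 0.76 and -0.25, so the direction with CRL1505 turned between its probes. *Trim7* was not well above background in CRL1505 + LPS and had a log2 ratio of -0.11 with CRL1506 at the probe used. Another probe of *Trim7*, whose accession was not found in RefSeq, was well above background in CRL1506 + LPS alone, at least 4.59-fold higher than in LPS and at least 3.59-fold higher than in CRL1505 + LPS. Neither array with lactobacilli had the probe of its RefSeq transcript well above background. *Trim43b* and *Trim69* were well above background in CRL1506 + LPS alone, where *Trim69* was at least 1.90-fold and *Trim43b* at least 1.28-fold higher than in LPS.

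The second comparison asked the same of CRL1506. Of 46 TRIM genes that could be compared, 2 were at least 2-fold higher in CRL1506 + LPS (4.35%), *Trim12c* and *Trim30a*, and 1 was at least 2-fold lower (2.17%), *Trim47*. The probe used for *Trim12c* also lists a *Trim5* transcript. Its second probe, listed under *Trim12c* alone, did not pass, with a log2 ratio of 0.47. The mean over probes was 0.90 for *Trim12c* and 1.42 for *Trim30a*. Over all 16279 genes compared, the background was 5.67% higher and 3.53% lower, or 9.2% in either direction, so the shares of TRIM genes lay near or below the background. The balance of 2 to 1 became 1 to 2 after a shift by the median and 2 to 2 with quantile normalization or either spike-in scaling. Over all genes, 923 higher and 575 lower became 670 and 873 after the median shift and 842 and 792 with quantile normalization. They were 806 and 666 after scaling to all spike-in probes, and 781 and 698 with those well above background. In the IFN-inducible list 2 of 11 passed 2-fold, 10 of 11 lay above 0 and the median log2 ratio was 0.45, while the median of all genes was -0.06. Below the threshold, *Trim30b* had the next largest log2 ratio of the list with 0.90, and *Trim26*, *Trim56* and *Trim30d* had 0.48, 0.46 and 0.45. With a shift by the median 8 of the 11 lay above 0.

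At the probe used, every TRIM gene past 2-fold with CRL1506 was also past it with CRL1505. Of the 19 past it with CRL1505, 16 were not past it with CRL1506. Over all genes, too, fewer passed in either direction with CRL1506 (9.2%) than with CRL1505 (18.3%). How many of all genes passed with both strains was not counted, so the split is not read as a trait of the family. Both comparisons use the same LPS array, so the overlap of TRIM genes is no independent evidence of a shared response. The strains were therefore also set against each other without it. Of 45 TRIM genes, 7 were at least 2-fold higher in CRL1505 + LPS than in CRL1506 + LPS (15.6%) and 2 were at least 2-fold lower (4.44%), against 9.02% and 7.47% of 15780 genes. In either direction 9 of the 45 passed, with a background of 16.5%.

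The 7 genes higher with CRL1505 than with CRL1506 were *Trim21* at 3.03-fold, *Trim30d* at 2.91-fold, *Trim14* at 2.58-fold, *Trim26* at 2.57-fold, *Trim30b* at 2.27-fold, *Trim30a* at 2.02-fold and *Trim34a* at 2.01-fold. All belonged to the IFN-inducible list, whose 11 compared genes were above 0 at the probe used, with a median log2 ratio of 1.02. The probe used for *Trim30b* is listed by RefSeq only under *Gm38525*. Other probes differed for some of the 7 genes. The log2 ratios between the strains ran from -1.40 to 1.02 over the probes of *Trim30a* and from -0.17 to 1.01 over those of *Trim34a*. Their means over probes were 0.13 and 0.46. The third probe of *Trim14* was lower with CRL1505 than with CRL1506, as a bound. *Trim21* and *Trim30d* remained past 2-fold in all 7 other normalizations, *Trim14*, *Trim26* and *Trim30b* in 6, and *Trim30a* and *Trim34a* in 1. The 2 lower genes were *Trim2* at 2.87-fold and *Trim42* at 2.04-fold or more, past 2-fold in 5 and 2 of the 7. *Trim2* was near background in CRL1505 + LPS and *Trim42* was not well above it there. The count of 7 higher and 2 lower became 12 and 1 after a shift by the median, which moved the median over all genes measured in both from 0.09 to 0.58 on the log2 scale, and 2 and 9 after scaling to the spike-in probes well above background, which moved it to -0.31. It was 5 and 4 after scaling to all spike-in probes, and 5 and 0 with normexp background correction and in the deposited log2 table.

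The root mean square of the log2 ratio over the 41 TRIM genes that all arrays detected was 1.07 for CRL1505 against LPS, 0.56 for CRL1506 against LPS and 0.73 between the strains. Over all 13123 such genes it was 0.74, 0.52 and 0.70, so the family stood furthest from all genes in the comparison of CRL1505 with LPS.

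Family members that carry other names were read from a list of 11 genes. *Pml*, the IFN-inducible organiser of nuclear bodies, had a signal of 5.15 in LPS, 16.2 in CRL1505 + LPS and 7.01 in CRL1506 + LPS, or 3.15-fold and 1.36-fold higher. *Mid1*, a microtubule-associated ligase, measured 1.20, 3.36 and 1.10 and was 2.81-fold higher with CRL1505 only. *Mefv*, which encodes the inflammasome sensor pyrin, measured 0.245, 0.087 and 0.105, or 2.82-fold and 2.34-fold lower. *Mid2* was 2.28-fold higher with CRL1506, from 0.059 in LPS to 0.134, and was not well above background in CRL1505 + LPS. A ratio could be formed for 6 of the 11 genes with CRL1505 and for 8 with CRL1506. The spots of *Mid2* on the LPS and CRL1506 + LPS arrays lay in uneven areas.

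Of 20 substrates, partners and E2 enzymes of TRIM ligases, 3 were at least 2-fold higher with CRL1505 (15%), against 9.93% of all genes. None was at least 2-fold lower, against 8.41% of all genes. None passed with CRL1506, where 9.2% of all genes passed in either direction. *Ddx58*, which encodes RIG-I, measured 11.8, 37.1 and 15.9, or 3.16-fold and 1.35-fold higher. *Ifih1*, which encodes MDA5, measured 6.67, 28.8 and 10.2, or 4.31-fold and 1.53-fold higher. *Tbk1*, a kinase of IRF3, measured 0.907, 1.90 and 0.804, and was 2.10-fold higher with CRL1505 only.

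For scale, all 26 genes of a list of interferon-stimulated genes were at least 2-fold higher with CRL1505, against 9.93% of all genes. Their median log2 ratio was 1.90, against 1.66 for the IFN-inducible TRIM genes. With CRL1506, 7 of the 26 were at least 2-fold higher (26.9%), namely *Ifit3*, *Mx1*, *Oas2*, *Oasl2*, *Rsad2*, *Cmpk2* and *Bst2*, against 5.67% of all genes. The medians of the lists were then 0.75 and 0.45. Both lists were chosen with earlier results of these data known, so these counts are a description and no test. The log2 ratios with CRL1505 ran from 1.09 for *Oasl1* to 2.82 for *Ifit2*. The list also held *Isg15*, *Ifit1*, *Mx2*, *Oas1a*, *Oas3*, *Irf7*, *Stat2*, *Usp18*, *Ifi44*, *Dhx58*, *Zbp1*, *Gbp2*, *Gbp3*, *Xaf1*, *Herc6* and *Parp14*.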

How the data were processed

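Total RNA of RAW 264.7 cells was measured on 3 arrays, 1 per condition. The authors deposited the intensity of each spot as the processed signal of the Feature Extraction software, with background subtracted and each array on its own scale. Version 12.0.3.1 of the software stands in the files. A table of normalized log2 values that the authors deposited served as an alternative, and limma is named in the submitters' processing notes.

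From each array's log2 processed signals the 75th percentile over gene spots was subtracted, a signal of 743.1 (LPS), 517.0 (CRL1505 + LPS) and 697.9 (CRL1506 + LPS). Outlier spots were left out, repeated spots averaged, and a gene represented by its brightest probe, or by a probe with an outlier spot only where it had no other. Where 1 side was not well above background, its value was replaced by the higher of its signal and the lowest signal well above background on that array, and the ratio is a bound. No gene spot was saturated. Precision is limited by the number of arrays.

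The members, roles and lists were chosen with earlier results of these data known. Named were all TRIM genes past 2-fold in any comparison, all detected genes of the first 3 roles, and genes of the other lists past 2-fold against LPS. Of the macrophage markers, *Adgre1* and *Fcgr1* were higher and *Csf1r* lower past 2-fold with CRL1505. With CRL1506, *Adgre1* was just past 2-fold higher (2.005-fold). Of the markers of other cells, *Col1a2* (CRL1505) and *Col1a1* (CRL1506) were past it by bounds near background. An accession of 104 of the 124 probes was found in the RefSeq table, and 99 of these matched the same symbol only. Single values of 2 genes of the lists that are no members are not reported here. Probe positions are on mm9.

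Alternatives were a shift by the median, quantile normalization, cyclic loess, spike-in scaling over 10 probes, normexp with an offset of 50, the deposited log2 table, other filters on dim, outlier and uneven spots, the mean over probes, and 1.5-fold and 4-fold thresholds. Scaling to the 8 spike-in probes well above background was added after seeing the data. Python 3.11.15, pandas 2.3.3 and NumPy 2.4.6 were used, with R 4.3.3 and limma 3.58.1, and the steps were tested on simulated data.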

Additional observations from a re-analysis of the deposited data

Results flagged for a closer look

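*Trim23* and *Trim55* lay on opposite sides of LPS alone with the 2 strains, beyond the median SD between probes over all genes. Their ratios with CRL1506 lay within the median SD of 0.31 between probes of TRIM genes. *Trim23* had a log2 ratio of 0.607 with CRL1505 and -0.231 with CRL1506, and its second probe had 0.096 and -0.165. *Trim55*, a muscle gene, had -0.728 with CRL1505, as a bound since it was not well above background there, and 0.231 with CRL1506. In the deposited log2 table *Trim55* lay below 0 with CRL1506. With CRL1505, 1 of the 2 muscle genes compared, *Trim54* and *Trim55*, lay above 0 with cyclic loess, with normexp and in the deposited table. The difference was not tested, since there was 1 array per condition.

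A probe of *Trim5* was at least 61.7-fold brighter on the CRL1505 + LPS array than on the LPS array, at a spot that the software marked as an outlier and that was left out. No array had the other 2 probes of *Trim5* well above background.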

How the results depend on the processing

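No paired analysis was possible because each condition had 1 array. Strain and slide cannot be told apart for CRL1505, and dim genes lie near the floor of each array. Over the 9 counts and medians, 84 values under other settings lay within 1.5 times the count, or within the SD between probes, and 36 moved. The cause of each move was not tested. No named gene turned its direction under any setting in a comparison where it passed 2-fold. Below 2-fold some did, such as *Trim21* (-0.14 to 0.12) and *Trim34a* (-0.03 to 0.19) with CRL1506 and *Trim47* between the strains (-0.82 to 0.07).

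After a shift by the median, the count of lower TRIM genes was 4 and the median log2 ratio 0.47 for CRL1505 against LPS, 1 gene was higher and 2 were lower for CRL1506 against LPS, and between the strains 12 were higher and 1 was lower, with a median of 0.67. This shift moved the median over all genes measured on both arrays from 0.06 to 0.35 for CRL1505 and from -0.06 to -0.26 for CRL1506. With spike-in scaling, which moved it to -0.17 and -0.15, 6 were higher for CRL1505, 2 lower for CRL1506 and 4 lower between the strains. With the spike-in probes above background, where it was -0.45 and -0.17, 6 were higher for CRL1505 with a median of -0.38 over the TRIM genes, 2 were lower for CRL1506, and between the strains 2 were higher and 9 lower with a median of -0.25. With quantile normalization 2 were lower for CRL1506 and 1 between the strains, and with cyclic loess 1 was lower between the strains. With normexp 3 were lower for CRL1505 and 0 between the strains, and with the deposited log2 values 4 and 0. Without a filter on dim probes 2 were lower for CRL1506 and 7 between the strains, and with probes above background on all arrays 1 was lower between the strains. With the mean over probes 1 was higher for CRL1506. At 1.5-fold, 7 were higher and 6 lower for CRL1506 and 9 lower between the strains. At 4-fold, 2 were higher and 0 lower for CRL1505, and 0 were higher and 0 lower in either other comparison. In the IFN-inducible list, the genes at least 2-fold higher with CRL1505 numbered between 6 and 11 over the settings with a 2-fold threshold.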
